A study of Mus musculus with 8 samples.

Results

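The genes described here are 9 members of insulin and insulin-like growth factor (IGF) receptor signalling, Igf2, Insr, Igf1r, Irs1, Irs2, Pik3r1, Akt1, Akt2 and Foxo1, chosen by name from the 24421 genes of all 8 count tables and read across islet cell types and across surgery. The islet cells came from 8-week-old male C57BL/6J mice and were profiled by single-cell RNA sequencing in 4 control samples and 4 samples taken 2 days after 50% partial pancreatectomy (PPTx), a removal of part of the pancreas that makes the remaining β-cells replicate. Control mice had no operation, so surgery itself and loss of tissue cannot be told apart. Each sample pooled more than 120 islets from 1 to 3 mice, and the tests took these pools as the units. The fitted p-values used a spread between pools estimated largely over all genes together, not from each gene alone. The exact tests over samples used each gene's own values. The question put to these genes was whether their transcripts differed between hormone-defined cell types, between PPTx and control, and between replicating and other β-cells.

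Insulin and the IGFs bind tyrosine kinase receptors, which phosphorylate the insulin receptor substrates (Irs proteins). These recruit phosphatidylinositol 3-kinase, whose lipid product activates the Akt kinases, and Akt keeps the transcription factor Foxo1 out of the nucleus. In β-cells this pathway is known for its part in growth, survival and the maintenance of cell identity.

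Of 1240 cells in the tables, 1232 were kept, 520 from control and 712 from PPTx samples, and 1 barcode occurred in more than 1 sample. A cell was assigned to the hormone whose transcripts led the others by at least 3-fold, counted in unique molecular identifiers (UMIs, 1 per captured transcript), and no member gene entered this rule. This gave 949 insulin-led (β-like), 110 Gcg-led (α-like), 125 Ppy-led (PP-like) and 9 Sst-led (δ-like) cells, and 39 cells of mixed hormones, and 26 cells had a lead between 2-fold and 4-fold. Among the insulin-led, Gcg-led and Ppy-led cells, 9 of 10 β-cell markers were highest in the insulin-led cells and 6 of 8 α-cell markers in the Gcg-led cells. Of 4 PP-cell markers 3 were highest in the Ppy-led cells and Aqp3 was not detected, and the β-cell factor Mafa reached only 0.315 CPM (counts scaled to the total of the cell class) in insulin-led cells. In 14 insulin-led cells, 11 of them from PPTx samples, insulin made up at most 11.6% of the UMIs, against at least 21.6% in every other insulin-led cell. The total in the files ranged from 236645 to 1580152 UMIs per sample, and the sample median from 3328 to 8677 UMIs per cell. The median depth was 6061 UMIs in insulin-led, 3974.5 in Gcg-led and 5221 in Ppy-led cells, so the shares of cells with a UMI of each receptor are also given with every cell thinned to 2000 UMIs. Levels are CPM of the UMIs summed per sample and cell class, hormone transcripts included, which took 63.6% of the UMIs of insulin-led, 48.6% of Gcg-led and 62.2% of Ppy-led cells. Intervals on pooled levels and shares are exact 95% intervals (Poisson and Clopper-Pearson) that cover counting error only.

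Igf2 encodes the growth factor IGF-II and lies at chr7:142650768-142666816 (GRCm38.p6, the mm10 build of the counts), 11839 bases from Ins2. Its 27 UMIs lay in 16 cells, all of them insulin-led, in which insulin made up 47.5% to 68.9% of the UMIs. The control samples held 0, 11, 0 and 3 UMIs and the PPTx samples 2, 2, 5 and 4 UMIs in insulin-led cells. Control replicate 2 stood above all others, and its 11 UMIs came from 3 cells. None of the 244 cells led by another hormone held a UMI, and 3 counts over their total, taken as a limit, would be 2.48 CPM. The insulin-led level of 4.25 CPM (2.80 to 6.19) was 1.72 times that limit. The exact interval of the other cells reached 3.045 CPM and overlapped that of the insulin-led cells, so no least fold is given. Without control replicate 2 the insulin-led level was 2.72 CPM against a limit of 2.71 CPM, and no difference was detectable at this depth. For the Gcg-led cells alone the limit of 6.35 CPM lay above the insulin-led level, so no fold is given. Igf1, the other IGF and not a member, gave 22 UMIs in 4 cells, all among the 14 insulin-led cells of low insulin share (0.996% to 2.91% insulin), and is named here after its values were seen. Those 4 cells held 2 to 220 UMIs of 6 stellate cell markers, and 1 of them was led by ductal markers instead (45 UMIs), whereas the 16 Igf2 cells held 0 stellate UMIs.

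**Figure D1:**
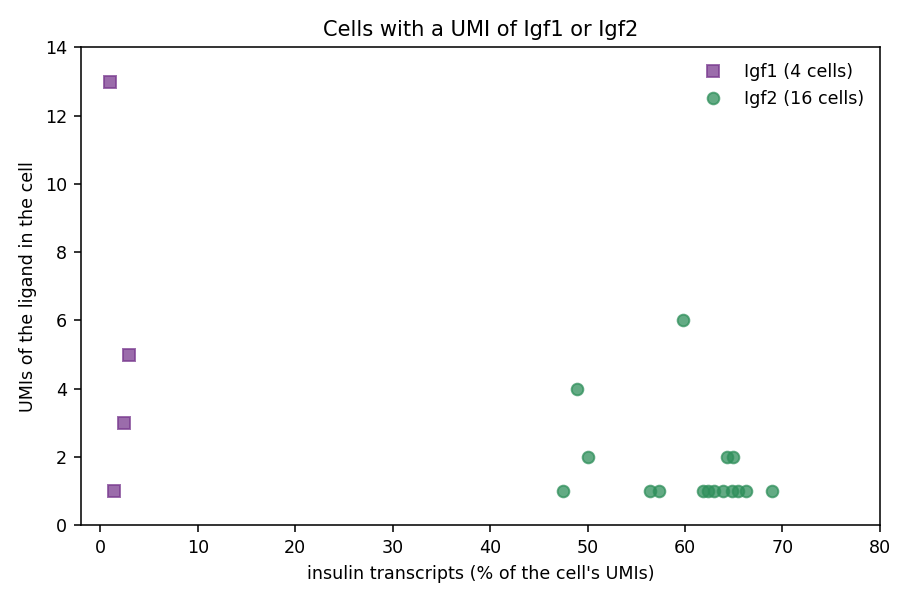
Each point is a cell with a UMI of Igf1 (squares) or Igf2 (circles), placed by the share of its UMIs that are insulin transcripts (x axis, %) and by the UMIs of the ligand in the cell (y axis). The 4 Igf1 cells sit below 2.91% insulin and the 16 Igf2 cells above 47.5%.

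Insr, the insulin receptor (chr8:3150922-3279649), and Igf1r, the IGF-I receptor (chr7:67952257-68233668), differed in how they were spread over the cell types. Insr was read in 6.64% of insulin-led, 6.36% of Gcg-led and 11.2% of Ppy-led cells, from 67, 9 and 16 UMIs, and after thinning in 2.42%, 4.55% and 3.20%, an order that puts the Gcg-led in place of the Ppy-led cells highest. The pooled Insr level was 10.6 CPM (8.18 to 13.4) in insulin-led, 19.1 CPM (8.71 to 36.2) in Gcg-led and 22.5 CPM (12.9 to 36.6) in Ppy-led cells. Insr was lower in insulin-led than in the other endocrine cells in 6 of 8 samples, 9.70 ± 2.58 against 23.3 ± 19.9 CPM (SD, n = 8), and did not pass the test (log2 fold change -0.63, SE 0.41, adjusted p = 0.308).

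In insulin-led cells Igf1r stood at 61.2, 78.4, 75.5 and 65.5 CPM in control replicates 1 to 4 and at 42.2, 64.7, 65.4 and 68.1 CPM in PPTx replicates 1 to 4. In the other endocrine cells of the same samples Igf1r stood at 74.5, 18.96, 41.9 and 21.2 CPM in control and 19.5, 32.0, 19.7 and 42.4 CPM in PPTx. The insulin-led value was the higher one in 7 of 8 samples, the exception being control replicate 1, where the other endocrine cells gave 2 UMIs from 10 cells. Counts were low in the agreeing samples too, since the other endocrine cells of all 8 samples gave 36 UMIs. A UMI of Igf1r was found in 30.5% (27.5% to 33.5%) of insulin-led, 11 of 110 Gcg-led (5.10% to 17.2%) and 20 of 125 Ppy-led cells (10.1% to 23.6%), and after thinning in 10.8%, 6.36% and 8.80%. As a measure of transcripts read in cells that should lack them, the β-cell markers Ucn3 and Slc2a2 were found in 84.4% and 63.1% of insulin-led cells, in 3.64% and 5.46% of Gcg-led cells and each in 5 of 125 Ppy-led cells. After thinning they were found in 1.82% and 4.55% of Gcg-led and in 3.20% and 0.8% of Ppy-led cells. The shares of Insr in Gcg-led cells (6.36%, and 4.55% after thinning) and in Ppy-led cells after thinning (3.20%) were near these values. The interval of the Igf1r share in Gcg-led cells reached down to them, so these shares alone are not read as expression. In CPM the Gcg-led and Ppy-led levels of Ucn3 and Slc2a2 were 1.32% to 5.80% of the insulin-led level. The same percentages were 45.2% and 42.96% for Igf1r and 180.6% and 213.4% for Insr, the latter from 9 and 16 UMIs. By level both receptors lay above these markers in both classes. Igf1r was higher in insulin-led cells with a log2 fold change of 1.55 (SE 0.26, adjusted p = 5.53e-08), and exact sign flips over the 8 samples gave p = 0.0156 (two-sided). After thinning the log2 fold change was 1.08 (adjusted p = 0.0479).

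The adaptors Irs1 (chr1:82233105-82291439) and Irs2 (chr8:10984681-11008929) couple both receptors to phosphatidylinositol 3-kinase, and Irs2 is a textbook target of Foxo1. Their promoters are shown because both hold the same pair of motifs close to each other. Within the RefSeq windows from 250 bases before to 50 bases after the gene start (GRCm38.p6), each held the E-box CACGTG (its own complement) and the insulin response core TGTTTTG, which reads CAAAACA on the other strand, both in capitals here, 5′ to 3′ on the minus strand. In Irs1 the motifs overlap, since the core starts 4 bases after the E-box starts, and in Irs2 it starts 7 bases after. The Irs1 stretch is chr1:82291534-82291564 and the Irs2 stretch is chr8:11008950-11008983.
Irs1: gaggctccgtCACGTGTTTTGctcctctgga
Irs2: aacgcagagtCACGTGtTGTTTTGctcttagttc
The longest run shared by both windows was of 10 bases, a length held by GTCACGTGTT and also by TGTTTTGCTC, which contains the core. Of 32851 promoters of the same length, 7.15% held the E-box, 6.28% the core on either strand, and 18 (0.0548%) held both at most 10 bases apart. The motifs were picked after these sequences had been read, and a match says nothing about binding in these cells. Of the 9 members 8 had a promoter entry, and the FoxO motif TGTTTAC, or GTAAACA on the other strand, held by 3.65% of promoters, was found in 1 of the 2 Akt1 promoters and in no other member's.

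Both adaptors were rare, with 33 UMIs each over all kept cells. Irs1 gave 31 UMIs in 30 insulin-led cells, 4.88 CPM (3.32 to 6.93), 2 UMIs in Ppy-led cells and 0 in the 110 Gcg-led cells, where 3 counts would be 6.35 CPM. Irs2 gave 24 UMIs in 17 insulin-led cells, 3.78 CPM (2.42 to 5.62), against 6 UMIs in Gcg-led cells, 12.7 CPM (4.66 to 27.6), and 2 UMIs in Ppy-led cells. No difference between classes passed the test for either adaptor, and the intervals were wide: for Irs2 the log2 fold change of insulin-led over other endocrine cells was -0.40 with an interval from -1.71 to 0.92.

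Pik3r1 (chr13:101680761-101768217) encodes the regulatory subunit of phosphatidylinositol 3-kinase that docks on Irs proteins. In insulin-led cells it stood at 10.2, 10.6, 21.2 and 28.7 CPM in control and 14.1, 18.4, 28.0 and 18.4 CPM in PPTx replicates 1 to 4. The mean of 18.7 ± 7.11 CPM compared with 9.37 ± 6.42 CPM in the other endocrine cells (SD, n = 8), and the insulin-led value was higher in 7 of 8 samples. The log2 fold change was 1.40 (SE 0.44, adjusted p = 0.0101), a call that was lost without control replicate 4 (adjusted p = 0.0814) and with DESeq2 (adjusted p = 0.104).

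Akt1 (chr12:112653821-112674884), the Akt kinase known for growth and survival, was higher in insulin-led cells in 8 of 8 samples. Its insulin-led levels were 76.5, 74.1, 97.6 and 52.8 CPM in control and 58.9, 61.5, 94.5 and 60.7 CPM in PPTx replicates 1 to 4. The levels in the other endocrine cells were 37.3, 47.4, 62.9 and 47.7 CPM in control and 32.5, 47.9, 59.1 and 0 CPM in PPTx. They rest on 59 UMIs in all, and control replicate 1 and PPTx replicate 4 held only 10 and 16 of these cells. Every sample ordered the classes the same way, and exact sign flips gave p = 0.00781, the smallest that 8 samples allow (two-sided). The log2 fold change was 1.01 (SE 0.23, adjusted p = 1.19e-04). Akt2 (chr7:27591552-27640826), the Akt kinase known for its part in glucose uptake, gave 74 UMIs in all, with 9.61 CPM (7.35 to 12.3) in insulin-led, 16.9 CPM (7.31 to 33.4) in Gcg-led and 5.63 CPM (1.53 to 14.4) in Ppy-led cells. These intervals overlapped, and no class comparison of Akt2 passed the edgeR test, although over samples Akt2 was higher in insulin-led than in Ppy-led cells in 6 of 7 (9.60 ± 2.73 against 2.998 ± 5.41 CPM, SD, exact sign flips p = 0.03125, two-sided), from 57 against 4 UMIs.

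Foxo1 (chr3:52268337-52350109), the transcription factor that Akt restrains, was ordered differently from Igf1r and Akt1. Its pooled level was 70.3 CPM (52.2 to 92.7) in Ppy-led, 58.1 CPM (52.3 to 64.4) in insulin-led and 50.8 CPM (32.6 to 75.6) in Gcg-led cells, with overlapping intervals. Taken sample by sample, Foxo1 was 62.1 ± 12.3 CPM in insulin-led against 28.0 ± 26.8 CPM in Gcg-led cells (SD, n = 6), higher in 5 of 6 samples, and 60.1 ± 18.5 against 73.3 ± 34.8 CPM in Ppy-led cells (SD, n = 7), higher in 3 of 7. The pooled Gcg-led level rests on control replicate 3, which gave 17 of the 24 UMIs. The 9 Sst-led cells gave 4 UMIs of Foxo1, 142 CPM (38.8 to 364), 2 each of Igf1r and Akt1, 71.1 CPM (8.61 to 257), 1 each of Insr and Irs2, and 0 of the other 4 members, where 3 counts would be 106.7 CPM.

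**Figure D2:**
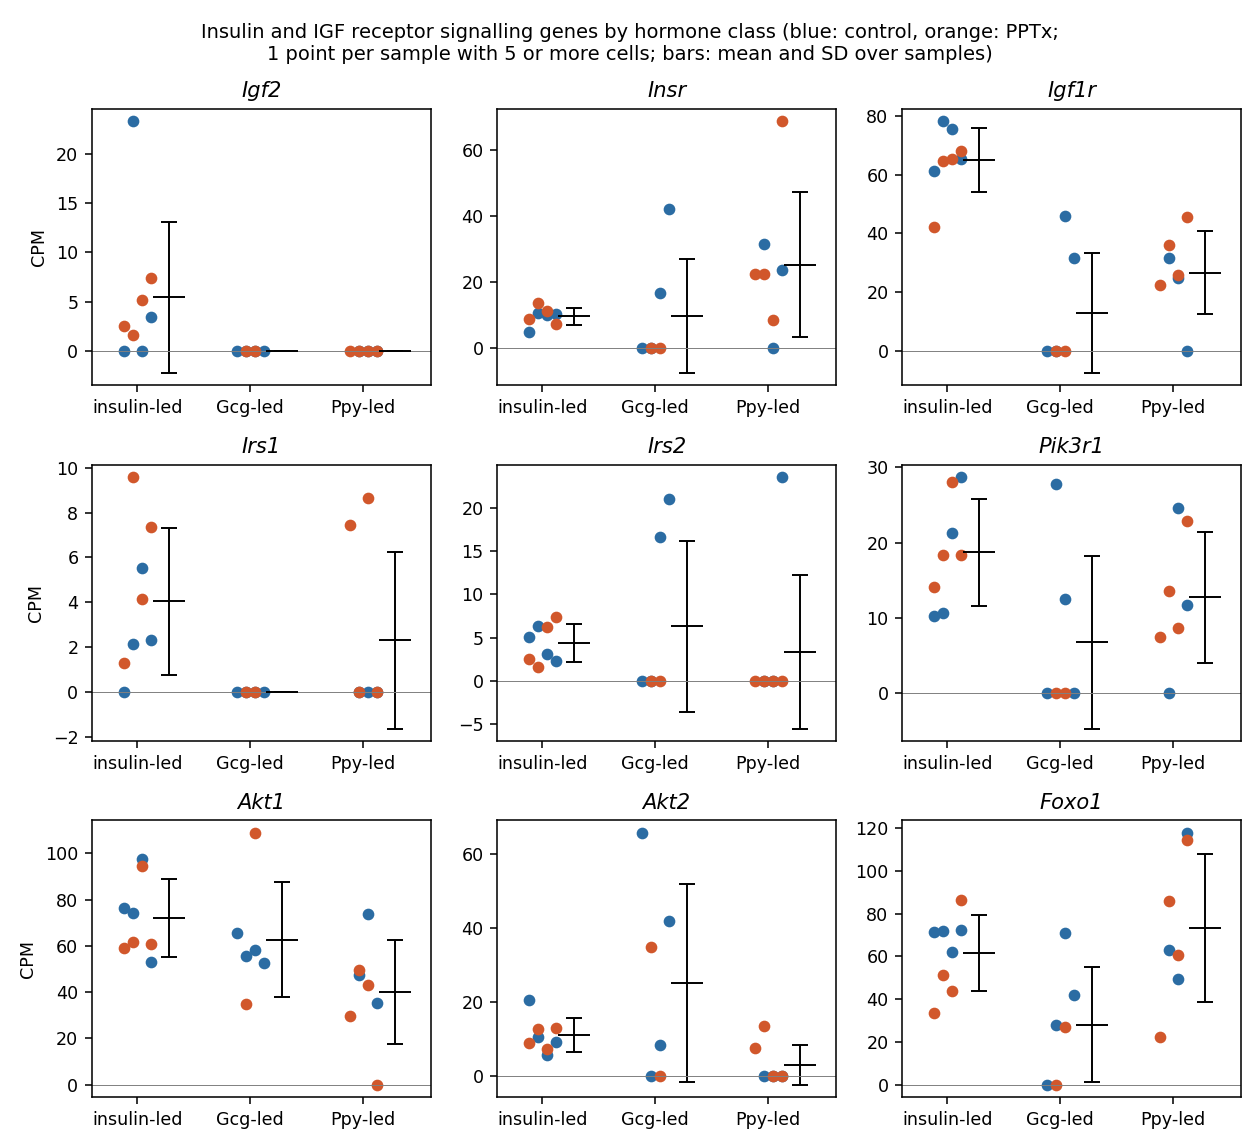
Levels (CPM, y axis) of the 9 genes in insulin-led, Gcg-led and Ppy-led cells, with 1 point per sample that has at least 5 cells of the class (blue control, orange PPTx) and bars for mean and SD, which can reach below 0. Igf1r and Akt1 have their highest means in insulin-led cells, Foxo1 in Ppy-led cells, and Igf2 is at 0 outside insulin-led cells.

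Against the Gcg-led cells, in the 6 samples with at least 5 of them, 12.2% of all 10561 genes tested were called. With edgeR's stricter filterByExpr filter these were 965 of 4041 genes, and 3 of 3 members. In the main fit the 3 members with at least 10 UMIs in both classes were all higher in insulin-led cells, and no member was lower. Igf1r had a log2 fold change of 2.08 (SE 0.43, adjusted p = 4.81e-05), Foxo1 of 1.24 (SE 0.39, adjusted p = 0.0186) and Akt1 of 1.14 (SE 0.37, adjusted p = 0.0203). Over these samples exact sign flips gave p = 0.03125 for Igf1r, 0.0625 for Foxo1 and 0.1562 for Akt1 (two-sided, smallest possible 0.03125). Akt1 stood at 76.2 ± 17.6 against 62.6 ± 24.8 CPM (SD, n = 6), higher in 5 of 6 samples. With hormone transcripts left out of the totals, Foxo1 and Akt1 were higher in 6 of 6 samples. Exact sign flips of those levels gave p = 0.03125 for each gene (two-sided). Control replicate 3 gave 11 of the 14 Gcg-led UMIs of Igf1r and 4 of the 6 samples gave 0, and the Igf1r log2 fold change ran from 1.87 to 3.13 with 1 sample left out, the highest without control replicate 3, where that of Foxo1 was 2.08. Pik3r1 was called as well (adjusted p = 0.0388), but it passed the minimum of 10 UMIs only through the insulin-led cells, with 109 UMIs against 4 from 2 of the 6 samples, and the ratio of the pooled levels was 2.45 with a counting interval from 0.931 to 9.16. Against the Ppy-led cells, in 7 samples, 2 of the 9 were higher and none lower, where 14.2% of 10894 genes were called. These were Igf1r with a log2 fold change of 1.598 (SE 0.34, adjusted p = 6.13e-05) and Akt1 with 1.12 (SE 0.30, adjusted p = 0.00285), while Foxo1 had 0.05 with an interval from -0.48 to 0.58. Against all other endocrine cells together, in 8 samples, 18.9% of 11109 genes were called (with filterByExpr 1474 of 4307 genes, and 2 of 3 members). Of the members with UMIs in both classes 3 were higher and none lower, Igf1r, Akt1 and Pik3r1. Igf2, which entered the test only through its insulin-led UMIs and had 0 in the other class, was called as well (adjusted p = 0.0244), and its call was lost without control replicate 2 (adjusted p = 0.137) and without PPTx replicate 3 (adjusted p = 0.0503). The median log2 fold change over all genes tested was 0.402, 0.335 and 0.178 in these 3 comparisons. With DESeq2, which differs in scaling, dispersion model and test together, that median was 0.0629, -0.00902 and -0.026, the members called were 1, 1 and 2, and Igf1r was among them each time. After thinning, the Igf1r call was lost against the Gcg-led cells (log2 fold change 1.602, adjusted p = 0.102) and against the Ppy-led cells (1.21, adjusted p = 0.1004), as were that of Foxo1 against the Gcg-led cells (1.66, adjusted p = 0.0586) and that of Igf2 against all other endocrine cells (3.26, adjusted p = 0.118). Against the Gcg-led cells the calls of Foxo1, Akt1 and Pik3r1 also turned on single samples: that of Foxo1 was lost without control replicate 2, control replicate 4 or PPTx replicate 2 (adjusted p up to 0.0872), that of Akt1 without control replicate 2, 3 or 4 (up to 0.176), and that of Pik3r1 without control replicate 3 or 4 or PPTx replicate 2 or 3 (up to 0.247).

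**Figure D3:**
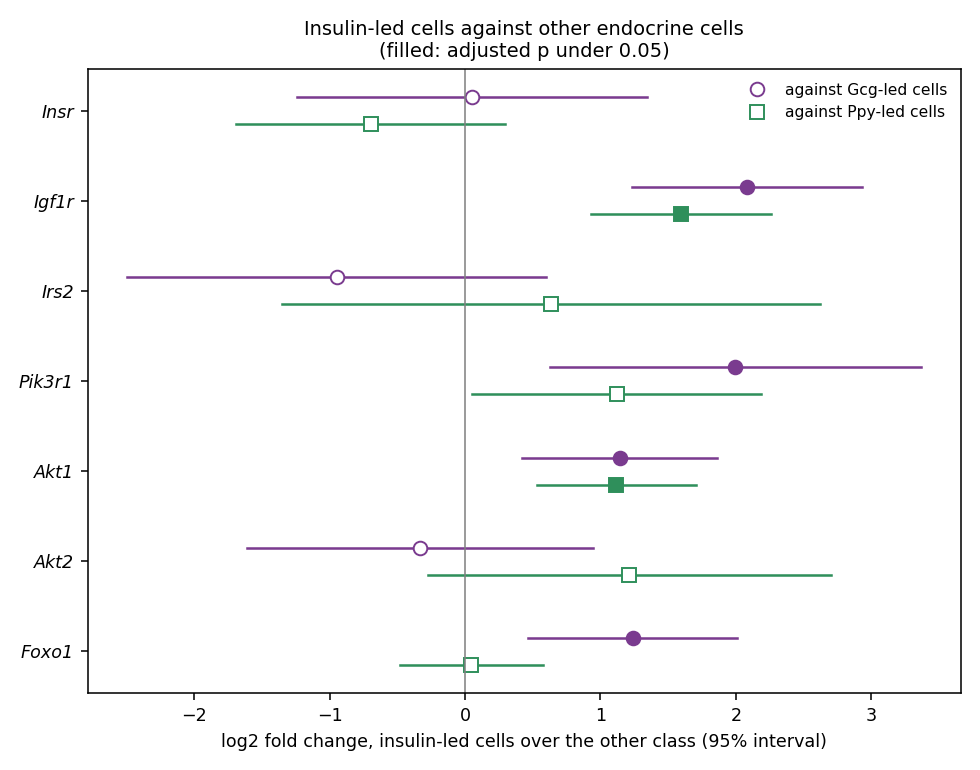
Log2 fold changes with 95% intervals (x axis) of insulin-led over Gcg-led cells (circles) and over Ppy-led cells (squares), filled where the adjusted p is under 0.05. Igf2 and Irs1 are left out because Gcg-led cells held 0 UMIs of them. Igf1r and Akt1 are filled in both comparisons, Pik3r1 and Foxo1 against Gcg-led cells only.

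Further genes of the pathway were read by lists of ligands, receptors, adaptors, kinases, inhibitors, effectors and FoxO targets. Of 4 receptors 2 were higher in insulin-led than in other endocrine cells, Igf1r and Insrr, the orphan receptor related to the insulin receptor. Insrr stood at 169 ± 25.8 against 40.3 ± 18.5 CPM (SD, n = 8) and was higher in 8 of 8 samples (log2 fold change 2.53, SE 0.22, adjusted p = 7.66e-29). Of 11 adaptors tested 1 was higher and 3 were lower, where 18.9% of all genes were called (1444 higher and 655 lower), with a median log2 fold change of -0.01 against 0.178 for all genes. Grb10, an adaptor that restrains insulin and IGF receptors, was lower in insulin-led cells in 8 of 8 samples, 7.45 ± 3.62 against 82.5 ± 38.9 CPM (log2 fold change -3.02, SE 0.28, adjusted p = 1.56e-25), and Gab1 had a log2 fold change of -2.42 (adjusted p = 0.00194) from 29 UMIs, a call lost without control replicate 3 (adjusted p = 0.0545) and after thinning (-1.41, adjusted p = 0.355). Of 18 FoxO target genes tested 1 was higher and 2 were lower, a share near the 18.9% of all genes. The lowest of these was Pdk4, a kinase that shuts off pyruvate dehydrogenase, with 2 UMIs in insulin-led and 85 UMIs in the other endocrine cells (adjusted p = 4.86e-34). Pdk4 entered this test only through the other endocrine cells. The ratio of pooled levels was 222.8 with a counting interval from 59.8 to 1869. It is no exact fold, since the insulin-led level of 0.315 CPM lay under its limit of 3 counts, 0.472 CPM. Pdk4 stood at 144 ± 43.0 CPM in Gcg-led cells (SD, n = 6) and 16.9 ± 14.7 CPM in Ppy-led cells (SD, n = 7). Against Gcg-led cells Socs2, a suppressor of cytokine signalling, was called higher (adjusted p = 6.36e-04) with 126 against 2 UMIs, a ratio of pooled levels of 5.67 (counting interval 1.54 to 47.3). Eif4ebp1, a translation repressor downstream of Akt, had 85 against 1 UMI, a ratio of 7.65 (1.34 to 306), and its call (adjusted p = 0.00812) was lost without control replicate 3 (0.0874) and with DESeq2 (0.0874). Against Ppy-led cells Igfals, an IGF-binding complex subunit, was called higher (adjusted p = 3.01e-07) with 199 against 1 UMI, a ratio of 22.8 (4.04 to 904). These 3 genes entered the test only through their insulin-led UMIs, the lower class lay under its limit of 3 counts, and with 1 sample left out the fitted log2 fold change ran from 2.92 to 5.96 for Eif4ebp1 and from 4.14 to 7.07 for Igfals. Bcl6, a transcriptional repressor, had -2.43 (adjusted p = 0.0117), lost without PPTx replicate 2 (0.118). Igfbp4, an IGF-binding protein, was called with 46 against 0 UMIs, but 43 of the 46 lay in 5 of the 14 insulin-led cells of low insulin share, and the other 935 insulin-led cells held 3 UMIs, 0.475 CPM, below the Ppy-led limit of 4.22 CPM, so no fold is given. The Igfbp4 call was also lost without control replicate 4, PPTx replicate 2 or PPTx replicate 4 (adjusted p up to 0.124).

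Between PPTx and control, none of the 9 members was called in insulin-led cells by edgeR's quasi-likelihood test, which called 0.206% of 10675 genes (22 genes), and none by DESeq2. At an unadjusted p under 0.05, which 8.06% of all genes passed, edgeR had 1 member, Foxo1, and DESeq2 had 0. The 4 PP-cell markers together moved with the surgery within the insulin-led class, from 291 to 1697 CPM in control and from 2073 to 3771 CPM in PPTx samples, with Aqp3 at 0, and their part in the values of this class was not tested. Foxo1 stood at 71.4, 72.0, 62.2 and 72.4 CPM in control and at 33.3, 51.1, 43.6 and 86.5 CPM in PPTx replicates 1 to 4. The control samples lay within a narrow band, 3 PPTx samples lay below it and PPTx replicate 4 above it. The log2 fold change was -0.50 (SE 0.24, interval -0.99 to -0.01, adjusted p = 0.607), with 1 sample left out it ran from -0.82 without PPTx replicate 4 (adjusted p = 0.0915) to -0.36 without PPTx replicate 1 (0.877), and the exact permutation test over samples gave p = 0.229 (two-sided, with 0.02857 the smallest that 4 against 4 allows).

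Igf1r was 70.1 ± 8.15 CPM in control and 60.1 ± 12.0 CPM in PPTx insulin-led cells (SD, n = 4 each), with PPTx replicate 1 the lowest, and the groups overlapped (log2 fold change -0.35, interval -0.77 to 0.07, adjusted p = 0.706). With each cell thinned to 2000 UMIs the sign turned, to 0.54 (SE 0.35). Akt1 was 75.2 ± 18.3 and 68.9 ± 17.1 CPM, with a log2 fold change of -0.23 (interval -0.68 to 0.22). Pik3r1 was 17.7 ± 8.96 and 19.7 ± 5.90 CPM, and Insr 9.06 ± 2.65 and 10.3 ± 2.74 CPM. For these genes the intervals left room for changes such as a log2 fold change of -0.79 to 0.78 for Insr. The rarer members bounded less: the interval was -0.73 to 1.91 for Irs1 (2.48 ± 2.27 and 5.59 ± 3.64 CPM), -1.41 to 1.49 for Irs2 (4.22 ± 1.84 and 4.44 ± 2.79 CPM) and -0.77 to 0.95 for Akt2 (11.4 ± 6.35 and 10.5 ± 2.81 CPM). Igf2 was 6.69 ± 11.2 CPM in control and 4.18 ± 2.61 CPM in PPTx, and the sign of its log2 fold change turned from -0.67 to 1.33 without control replicate 2. In the longer lists edgeR called no ligand, receptor, adaptor, kinase, inhibitor or effector, and at an unadjusted p under 0.05 each list had 0 to 2 genes of 4 to 15 tested, against the 8.06% of all genes. Among these, named here after their values were seen, Socs2 stood at 23.3 to 39.1 CPM in control and 8.96 to 22.1 CPM in PPTx samples (log2 fold change -0.96, SE 0.30, adjusted p = 0.266) and Sos2 at 16.1 to 40.8 and 9.20 to 15.2 CPM (-0.77, SE 0.32, adjusted p = 0.518). The groups did not overlap for either gene, as for 5.13% of the 10675 genes tested, with p = 0.02857 in the exact permutation test. Of 17 FoxO target genes tested none was called and 1 had an unadjusted p under 0.05, a share no higher than the 8.06% of all genes, and their median log2 fold change was -0.195 against 0.0223 over all genes.

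**Figure D4:**
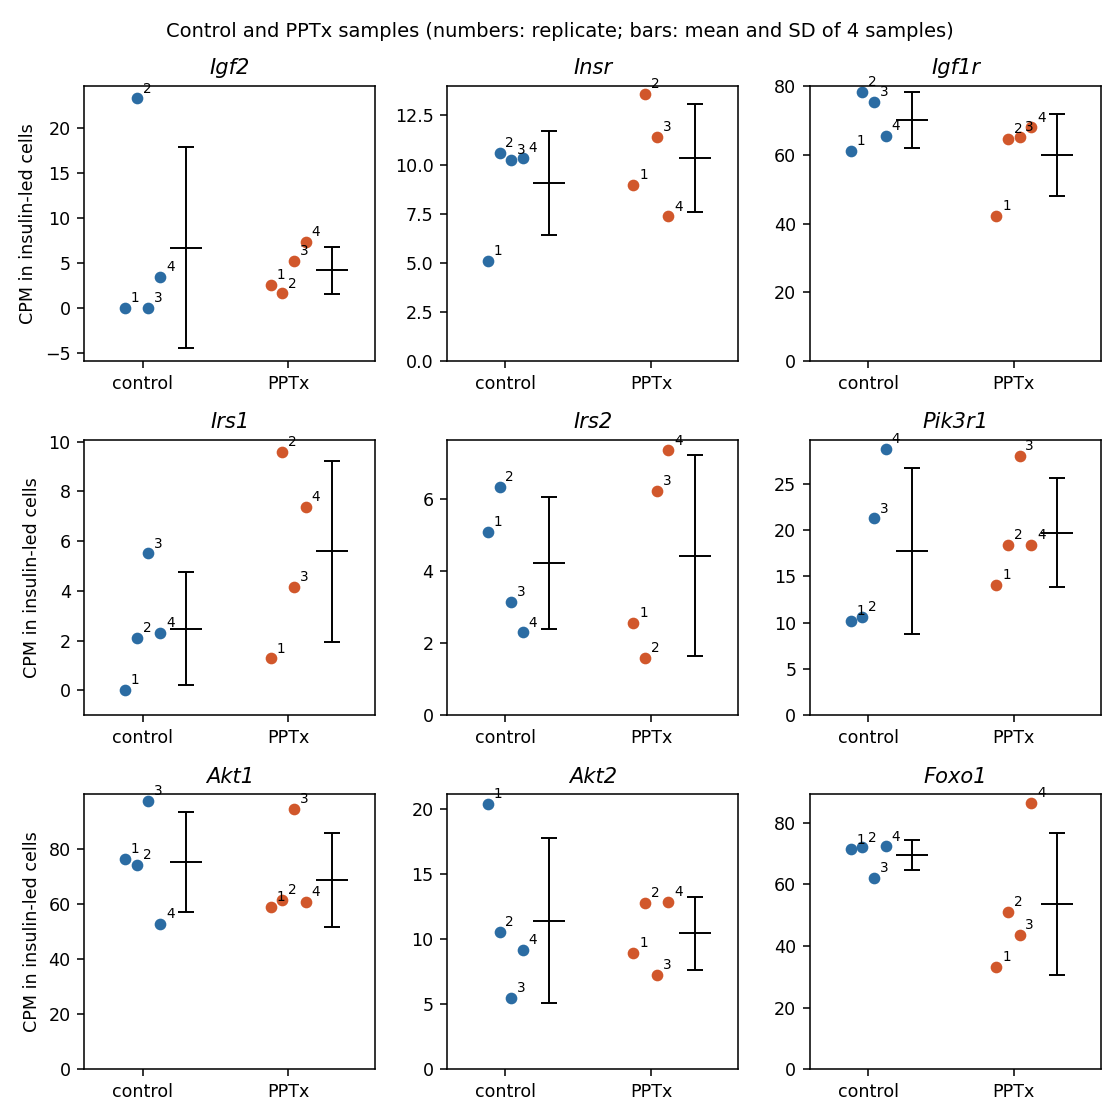
Levels (CPM, y axis) of the 9 genes in insulin-led cells of the 4 control and 4 PPTx samples, numbered by replicate, with mean and SD. The groups overlap for every gene, and control replicate 2 stands apart for Igf2.

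In the other endocrine cells 6 of the 9 members had at least 10 UMIs and none was called, where 0.203% of 7872 genes were. At an unadjusted p under 0.05, which 5.60% of all genes passed, there was none either, and DESeq2 called none of the 4 members with at least 20 UMIs. The makeup of this class moved with the surgery: Gcg-led cells were 50.0% to 86.7% of it in control and 6.25% to 20.8% in PPTx samples, and the part of this in the values was not tested. Foxo1 was 49.6 ± 36.4 CPM in control and 68.4 ± 29.4 CPM in PPTx samples, and Igf1r 39.1 ± 25.7 and 28.4 ± 11.03 CPM (SD, n = 4 each). All 9 Irs2 UMIs of this class came from control replicates 3 and 4, and 6 of them from Gcg-led cells. Pdk4 and Igfals, named here after their values were seen, did not overlap between the groups in this class, as did 3.61% of the 7872 genes tested (exact permutation p = 0.02857 for both), and were not called (adjusted p = 0.285 and 0.24). Pdk4 was 101.6 ± 22.2 CPM in control and 35.1 ± 16.3 CPM in PPTx samples. Igfals was 23.9 ± 10.98 CPM in control and 0 in all PPTx samples of this class, from 11 UMIs in all. It passed the minimum of 10 UMIs only through the control samples, so its lack of overlap and its p-values are not read as a result. Igfals stood at 26.5 ± 28.0 CPM in Gcg-led against 2.25 ± 5.95 CPM in Ppy-led cells. The change with PPTx did not differ detectably between insulin-led and other endocrine cells for Foxo1 (difference in log2 fold change -0.65, interval -1.50 to 0.21) or Igf1r (-0.20, interval -1.34 to 0.94), in an edgeR test that called 0.036% of genes and no member. At an unadjusted p under 0.05, which 4.91% of all genes passed, it had 1 member, Irs2 (adjusted p = 0.864), whose PPTx samples held 0 UMIs in the other endocrine cells, and DESeq2 called neither Igf1r nor Foxo1.

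Replicating cells were taken as insulin-led cells with at least 2 UMIs of 10 replication markers, 40 cells in all, 10 from control and 30 from PPTx samples. Their median depth was 6619.5 UMIs against 6017 UMIs in the 909 other insulin-led cells. The 6 samples with at least 3 replicating cells entered the comparison, which called 5.53% of 10537 genes. Igf1r was the 1 member called, but it passed the minimum of 10 UMIs only through the other insulin-led cells (363 UMIs against 4). In replicating cells it stood at 0 and 43.2 CPM in control replicates 3 and 4 and at 0, 28.9, 11.7 and 0 CPM in PPTx replicates 1 to 4. In the other insulin-led cells of these samples it stood at 78.4 and 66.1 CPM in control and at 45.3, 66.8, 70.6 and 69.5 CPM in PPTx. Igf1r was lower in replicating cells in 6 of 6 samples, with 4 UMIs from 3 of them. The highest replicating value, 43.2 CPM, lay close to the lowest of the others, 45.3 CPM. The share of all genes ordered the same way in every sample was not counted. The log2 fold change was -2.87 (SE 0.61, adjusted p = 2.73e-04), against a median of -0.586 over all genes in the same fit. Exact sign flips gave p = 0.03125, the smallest that 6 samples allow (two-sided). The ratio of pooled levels was 4.82 for the others over the replicating cells (counting interval 1.87 to 17.8). Over all 8 samples, 3 of 40 replicating cells (7.50%, 1.57% to 20.4%) held a UMI of Igf1r, against 286 of 909 other insulin-led cells (31.5%, 28.5% to 34.6%), or 2 of 40 against 100 of 909 after thinning. The value rests on 4 UMIs, and the adjusted p was 0.0538 with DESeq2 and 0.0582 after thinning, with log2 fold changes of -2.41 and -3.03 against medians over all genes of 0.0641 and -1.59.

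Foxo1 and Akt1 did not pass the test. Foxo1 was 55.0 ± 39.9 CPM in replicating and 58.8 ± 18.4 CPM in other insulin-led cells (SD, n = 6), higher in 4 of 6 samples, and Akt1 was 70.1 ± 60.6 and 71.7 ± 20.3 CPM, higher in 3 of 6. With hormone transcripts left out of the totals, Foxo1 was higher in 2 of 6 samples and Akt1 in 2 of 6. Their fitted log2 fold changes were -1.04 (adjusted p = 0.181) and -0.75 (adjusted p = 0.281), and with DESeq2, whose median over all genes was 0.0641, they were -0.55 and -0.29. In the longer lists, where 5.53% of all genes were called, 2 of 4 receptors were lower in replicating cells (Igf1r and Insrr), 1 of 11 adaptors (Sos2), 1 of 9 genes of the MAPK arm (Map2k2) and 2 of 16 FoxO target genes (Txnip and Cited2), 1 of 8 ligands and binding proteins was higher and 1 lower (Igfbp5 and Igfals), and no gene was called among the other lists. Insrr, Txnip and Cited2 are named here after their values were seen. Insrr had a log2 fold change of -1.19 (adjusted p = 0.0128), but over samples it stood at 142.8 ± 94.5 CPM in replicating and 163.7 ± 22.2 CPM in other insulin-led cells (SD, n = 6), lower in 3 of 6. With hormone transcripts left out of the totals, Insrr was higher in replicating cells in 1 of 6 samples. Its call was lost without PPTx replicate 1 or 3 (adjusted p up to 0.0966) and after thinning (0.0589). Txnip, which restrains glucose uptake, had a log2 fold change of -1.46 (adjusted p = 2.115e-04) and was lower in 5 of 6 samples. Cited2, a transcriptional coregulator, had -1.33 (adjusted p = 0.0168), was lower in 6 of 6 and lost its call without control replicate 3 or 4 (up to 0.143). With DESeq2 these 3 were not called (adjusted p = 0.447 for Insrr, 0.101 for Txnip and 0.377 for Cited2). Map2k2, a kinase of the MAPK arm, had a log2 fold change of -1.47 (adjusted p = 0.0156) and Igfals was called lower (adjusted p = 0.04) from 3 UMIs in 1 sample of the replicating cells, a ratio of pooled levels of 3.21 for the others over the replicating cells (counting interval 1.08 to 15.7). The Map2k2 call was lost without PPTx replicate 1 or 2 (adjusted p up to 0.138), and the Igfals call without any 1 sample but PPTx replicate 2 (up to 0.175). With DESeq2 neither gene was called (Map2k2 -0.98 and Igfals -1.98, adjusted p = 0.389 for both), nor was Sos2 (-1.98, adjusted p = 0.563). Sos2, an exchange factor that activates Ras, had 0 UMIs in replicating cells, where 3 counts would be 10.15 CPM. The others stood at 17.3 CPM, 1.71 times that limit, without counting error. The Sos2 call (adjusted p = 0.0239) was lost without any 1 of the 6 samples (up to 0.092). The log2 fold change of 2.88 of Igfbp5, an IGF-binding protein, came from 13 UMIs in 1 cell of PPTx replicate 2 that is one of the 14 cells of low insulin share (6.38%), and without that sample it was -3.62 (adjusted p = 0.444).

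**Figure D5:**
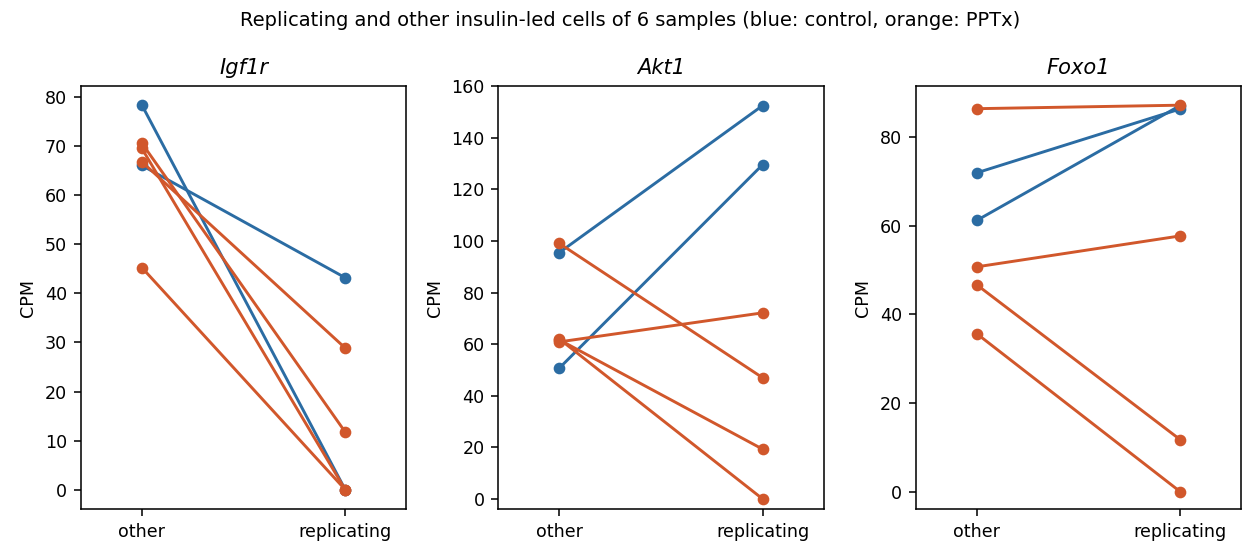
Levels (CPM, y axis) of Igf1r, Akt1 and Foxo1 in other and replicating insulin-led cells, with a line for each of the 6 samples (blue control, orange PPTx). The Igf1r lines all fall, those of Akt1 run upward in 3 samples and those of Foxo1 in 4.

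The 3 members with at least 200 UMIs were set beside the 3348 other genes of that depth, by Pearson's r of log2(CPM + 10) over 21 sums of a sample and a class, which share library and depth. Most like Igf1r were Pclo (r = 0.924), Fzd3 (0.897) and Vapb (0.882). Over the 8 insulin-led sums alone these had r of -0.157, 0.176 and 0.5001, so that the likeness of Pclo and Fzd3 lay between classes. Most like Akt1 were Dcaf8 (0.906), Ghitm (0.855) and Nfe2l1 (0.851), with 0.619, 0.413 and 0.413 over the insulin-led sums. Most like Foxo1 were Glg1 (0.895), Arfgef3 (0.867) and Nipal3 (0.843), and these kept r of 0.771, 0.581 and 0.595 over the insulin-led sums.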

How the data were processed

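Single-cell RNA was read in 8 samples (4 control, 4 PPTx). Per the study's methods, the authors isolated cells with a ddSEQ instrument and made libraries with the SureCell 3′ kit for that system, whereas the labels name a Chromium 3′ kit. The submitters' processing notes name bcl2fastq and mm10. The deposited values are raw UMI counts per gene and cell. Such counts sample transcript 3′ ends and give no level per length, so genes were not ranked against each other.

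Cells outside 100 to 3000 detected genes or 100 to 20000 UMIs were dropped, and no doublets were removed (Scrublet called 69, left out in an alternative). Counts were summed per sample and class (at least 5 cells, 3 for replicating cells), genes with at least 10 UMIs were tested with edgeR 4.0.16 (quasi-likelihood, Benjamini-Hochberg adjustment, threshold 0.05, sample as block between classes) in R 4.3.3, and DESeq2 1.42.0, thinning, other filters, Seurat 5.3.0 clusters and leaving out samples were alternatives. On simulated counts for the PPTx comparison in insulin-led cells, 100% of 200 genes changed by a log2 of 2 were recovered. These genes were drawn from those with at least 200 UMIs, at a fixed dispersion of 0.05. Of the members only Igf1r, Akt1 and Foxo1 reached that depth in insulin-led cells. Recovery of smaller changes or of rarer genes was not tested. Single values were compared over samples by exact permutation (scipy 1.17.1). The named pathway genes were those called with the largest absolute log2 fold change in each comparison, up to 5. The members and lists were chosen with earlier results of these data known.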

Additional observations from a re-analysis of the deposited data

Results flagged for a closer look

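In 26 groups of 4 samples with at least 10 UMIs of a member, 5 had a sample whose gap to the others exceeded Dixon's 95% critical value, where chance flags about 1 group in 20. Igf2 was 23.3 CPM in the insulin-led cells of control replicate 2, against 0 to 3.45 CPM in the other control samples. Insr was 5.10 CPM in control replicate 1, from 1 UMI, against 10.2 to 10.6 CPM in the others. Igf1r was 42.2 CPM in PPTx replicate 1 against 64.7 to 68.1 CPM. Akt1 was 94.5 CPM in PPTx replicate 3 against 58.9 to 61.5 CPM. Foxo1 was 62.2 CPM in control replicate 3 against 71.4 to 72.4 CPM, a gap that is small beside the spread of the PPTx samples.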

How the results depend on the processing

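Of the gene values recomputed under the alternatives, 891 kept their direction and their side of the threshold, 54 lost significance and 60 changed sign, and of the counts of called genes 81 stayed within 1.5 times and 29 did not. In insulin-led cells the 22 genes called for PPTx became 98 with no filter, 36 with DESeq2 and 1 to 33 with 1 sample left out (1 without control replicate 1, 2 without control replicate 2, 6 without PPTx replicate 1). With the replicate block they became 80. Same-numbered samples correlated over genes with r of 0.123, 0.0635, 0.107 and 0.24, and in the other endocrine cells with 0.209, 0.00135, 0.393 and 0.287. The numbers were taken as paired only if every r exceeded 0.1, since no label ties them to a shared animal or day. In insulin-led cells control replicates 1, 3 and 4 correlated best with their own number and control replicate 2 with PPTx replicate 3, a hint of pairing in these data that the design does not state. In the other endocrine cells the 16 genes became 10 with no filter, 8 after thinning, 7 with the replicate block and 3 to 29 with 1 sample left out. The class counts of 2099, 1546 and 1291 (other endocrine, Ppy-led, Gcg-led) became 1383, 854 and 715 with DESeq2 and 1053, 953 and 595 after thinning, and the last was 819 to 1166 with 1 sample left out. The share of called genes that were higher in insulin-led cells was 68.8%, 78.3% and 78.0%, and with DESeq2 51.3%, 51.2% and 59.9%. The 4 genes of the class by surgery test became 11 with filterByExpr, 1 with DESeq2, 7 with the leading hormone at any margin and 3 to 7 with 1 sample left out. The 583 of the replicating comparison became 332 with filterByExpr, 236 with DESeq2 and 286 to 437 with 1 sample left out. Of those called 33.1% were higher, against 91.1% with DESeq2 and 4.36% after thinning. The cause of these shifts was not tested.

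Changes of sign were in log2 fold changes that had not passed the test, apart from Igfbp5. For PPTx in insulin-led cells they were Insr at 0.00233 with no filter, 0.0183 without cells of low leading hormone (an alternative chosen after seeing the data) and 0.0127 with the block, Pik3r1 at 0.0798 with the block, Irs2 at -0.16 in Seurat clusters, and after thinning Igf2 at 0.00290, Insr at 0.23, Igf1r at 0.54 and Akt2 at -0.33. With 1 sample left out Igf2 ran from -1.38 to 1.33, Insr from -0.102 to 0.0644, Irs2 from -0.27 to 0.46, Pik3r1 from -0.39 to 0.13, Akt1 from -0.439 to 0.0319 and Akt2 from -0.22 to 0.26. In the other endocrine cells Foxo1 was -0.12 at any margin and -0.16 without cells of low leading hormone, and after thinning Insr was -0.22, Igf1r 0.73 and Akt1 0.29. With 1 sample left out there, Insr ran from -0.19 to 0.73, Igf1r from -0.37 to 0.14 and Foxo1 from -0.10 to 0.33. Against Ppy-led cells Foxo1 was -0.13 with filterByExpr, -0.21 with DESeq2, -0.0287 at any margin and -0.0522 to 0.269 with 1 sample left out, and Insr was 0.27 after thinning. Against Gcg-led cells Igf2 was -0.10 with DESeq2, Insr -0.15 at any margin and -0.14 to 0.79 with 1 sample left out, and Akt2 0.27 after thinning and -0.56 to 0.26 with 1 sample left out. Against all other endocrine cells Irs2 ran from -0.68 to 0.32 with 1 sample left out. In replicating cells DESeq2 gave Igf2 1.14, Irs1 0.30, Irs2 0.63 and Pik3r1 0.19, and with 1 sample left out Pik3r1 ran from -0.637 to 0.0465, Irs2 from -3.95 to 0.0110 and Igfbp5 from -3.62 to 4.47. Insulin-led and Sst-led cells could not be compared by a fit, since no sample held 5 Sst-led cells.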
